A study of Mus musculus with 4 samples.

Results

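The amino acid transporter gene Slc7a8 and 6 further genes of amino acid uptake (Slc7a5, Slc7a6, Slc3a2, Slc1a5, Slc38a1 and Slc38a2) were followed through the ILC2 lineage of mouse bone marrow. These 7 genes were chosen by name, out of 26421 genes listed in either of the 2 count tables, and all 7 were present in the tables and passed the filter on low counts. The cells sorted were αLPs, defined as Lin-, CD127+, FLT3- and LPAM-1+, of wild-type (WT) C57BL/6J mice and of G3SEKO mice, in which CRISPR-Cas9 removed the tandem super-enhancers related to Gata3. The deletion was made in the mouse germ line and so is not limited to the ILC lineage. Mice of the study were of both sexes and 6 to 12 weeks old, and experiment 1 pooled 10 WT and 8 G3SEKO mice while experiment 2 pooled 7 WT and 9 G3SEKO mice. Single-cell RNA-seq was done by TAS-Seq on BD Rhapsody captures, with hashtag antibodies against MHC class I telling the genotypes apart.

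Slc7a8 encodes LAT2, a light chain that carries neutral amino acids across the plasma membrane in exchange for others. It reaches the membrane as a pair with the heavy chain 4F2hc (CD98), the product of Slc3a2, which it shares with LAT1 (Slc7a5) and y+LAT2 (Slc7a6). Slc1a5 (ASCT2) exchanges small neutral amino acids including glutamine, and Slc38a1 (SNAT1) and Slc38a2 (SNAT2) take up glutamine and other neutral amino acids together with sodium. Group 2 innate lymphoid cells (ILC2s) are tissue lymphocytes that depend on the transcription factor GATA3, and they arise in the bone marrow from ILC precursors (ILCPs) that express Zbtb16. The study had itself singled out Slc7a8 partly on these same cells, together with data on open chromatin and GATA3 binding. Its values here are therefore no independent evidence for that choice.

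Cells were placed in 6 gates by 4 genes, where "+" means at least 1 on the scale ln(1 + reads per 10000). Mki67+ cells were set apart first as proliferating, then Il1rl1+ cells (Il1rl1 encodes ST2, which marks ILC2s), and the remaining cells were divided into Zbtb16+ Icos- (ILCP), Zbtb16+ Icos+, Zbtb16- Icos+ (toward the ILC2 fate) and cells with none of the 4 genes. Among 8663 cells in all, 7013 were kept, 681 WT and 43 G3SEKO cells in experiment 1 and 5130 WT and 1159 G3SEKO cells in experiment 2. The Il1rl1+ gate held 418 and 3515 WT cells but only 2 and 49 G3SEKO cells, and the G3SEKO Mki67+ gate held 0 and 35. Experiment 1 was the deeper one, with gate medians of 351352 to 839574 reads per cell against 21885 to 86011 in experiment 2. Values are reads summed over the cells of a gate, genotype and experiment, in counts per 1000000 reads (CPM), so each group has n = 2 experiments at most and pooled mice within each.

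The WT Il1rl1+ gate carried the ST2+ ILC2 markers. The gate was set by Il1rl1, so its high Il1rl1 (1098 and 1370 CPM in WT cells of experiments 1 and 2) was given by definition. Of the 3 other ST2+ ILC2 markers, Il2ra stood at 499.4 and 588.2 CPM and Gata3 at 1388 and 1042 CPM there. Klrg1 was detected. The B lineage, T lineage, NK/ILC1, myeloid and erythroid lists each summed to at most 25.2 CPM in that gate, and the mast cell and basophil list to 115.6 and 57.3 CPM, nearly all of it Cpa3, with Mcpt8, Fcer1a and Ms4a2 at or near 0. The WT Zbtb16+ Icos- gate held 2604 and 2696 CPM of the 4 ILCP markers, which include the gating gene Zbtb16 at 1054 and 1087 CPM. It also held 308.8 and 54.7 CPM of the NK/ILC1 and 41.7 and 17.4 CPM of the T lineage markers, against 6.85 and 2.44 CPM and 9.54 and 5.17 CPM in WT Il1rl1+ cells. The part of the NK/ILC1 and T lineage markers in the differences between these gates was not tested. The gate with none of the 4 genes was mixed, since its 5 NK/ILC1 markers summed to 825.4 and 47.5 CPM in WT and to 1180 and 301.9 CPM in G3SEKO cells. The 11 barcodes that occurred in both experiments were kept as separate cells. The labels of experiment 2 list both hashtags under WT, and calling the smaller group G3SEKO rests on the cell numbers of the study, on which every G3SEKO value of experiment 2 depends.

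Slc7a8 lies on the minus strand of chromosome 14 (chr14:54722209-54781946, GRCm38), Slc7a5 and Slc7a6 on chromosome 8 (chr8:121881150-121907694 and chr8:106168857-106198706), Slc3a2 on chromosome 19 (chr19:8706882-8723369) and Slc1a5 on chromosome 7 (chr7:16781340-16798274). Slc38a1 and Slc38a2 neighbour each other on the minus strand of chromosome 15, at chr15:96571418-96642913 and chr15:96687392-96699730. RefSeq promoter windows (GRCm38.p6) were at hand for 4 of the 7 genes. The part of the Slc7a8 window that lies 250 to 61 bases before the RefSeq start and in no annotated exon (chr14:54781947-54782136, minus strand) is shown because the results centre on Slc7a8:

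Slc7a8: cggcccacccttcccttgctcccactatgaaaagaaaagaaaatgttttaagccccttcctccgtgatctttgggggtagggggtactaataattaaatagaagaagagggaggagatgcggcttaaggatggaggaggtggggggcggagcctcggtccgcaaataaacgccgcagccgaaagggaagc

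The 250 bases before the start were searched on both strands for GATA motifs (AGATAA or AGATAG, with TGATAA or TGATAG), a RUNX motif (TGTGGT), the response element TGATGNAA of ATF4 with C/EBP factors, and the E-box CACGTG. None of these letters was found in the Slc7a8 window, so it carries no capitals. The paper lists Slc7a8 among genes with GATA3 binding in opened chromatin, in the gene body or near the start. The window searched covers only a part of that range. Of 32851 promoter windows of the same length, 26.5% held a GATA motif, 14.0% the RUNX motif, 3.45% the response element and 6.02% the E-box.

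Slc7a8 was low in ILCPs and high in ST2+ cells of WT mice. In the Zbtb16+ Icos- gate its levels were 1.26 CPM (experiment 1) and 22.9 CPM (experiment 2), followed by 5.59 and 23.3 CPM in the Zbtb16+ Icos+ gate. In the Zbtb16- Icos+ gate it reached 76.1 and 76.0 CPM, and in the Il1rl1+ gate 169.1 and 156.4 CPM. Both experiments thus put the Il1rl1+ gate highest, and the Zbtb16+ gates lay below every Il1rl1+ and Zbtb16- Icos+ value. The gate with none of the 4 genes had 81.4 and 120.4 CPM, and the proliferating gate 5.83 and 48.4 CPM.

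**Figure D1:**
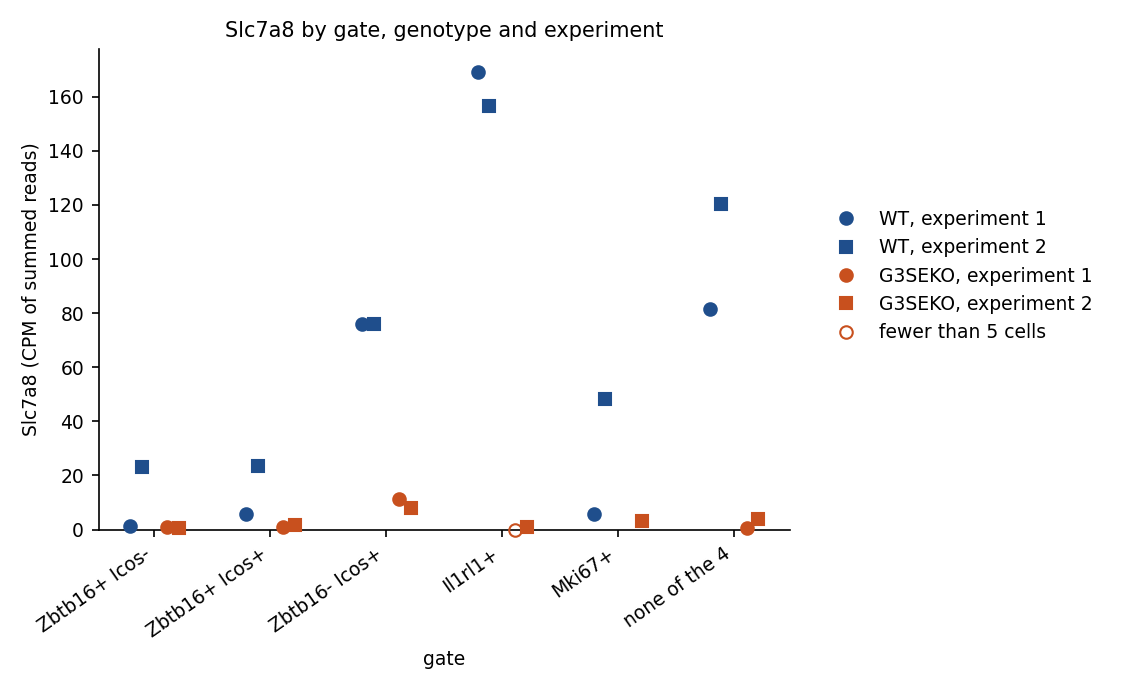
Slc7a8 in CPM of summed reads (y axis) for each gate (x axis), WT in blue and G3SEKO in orange, experiment 1 as circles and experiment 2 as squares, with an open symbol for a sum of fewer than 5 cells. The WT Il1rl1+ sums at 169.1 and 156.4 CPM stand above all others, and no G3SEKO sum exceeds 11.3 CPM.

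Part of the low values came from single cells. One cell carried 35.3% of the 153 Slc7a8 reads of the WT Zbtb16+ Icos- gate in experiment 2, and without it the level was 15.0 CPM. The 4 of 128 cells at or above the gate limit for Slc7a8 carried 86.3% of these reads, and the other 124 cells held 3.25 CPM. In the proliferating gate of experiment 1, 1 of 12 cells held 71.9% of the 57 reads, and the level without it was 1.82 CPM. The Il1rl1+ sums rested on 31561 and 22735 reads, and leaving out the cell with the most reads moved them only to 161.9 and 155.3 CPM. The 3 WT hashtags of experiment 1 gave 129.0, 168.7 and 216.5 CPM in the Il1rl1+ gate and 2.05, 1.14 and 0.687 CPM in the Zbtb16+ Icos- gate, without overlap. The same hashtags gave 119.5, 55.4 and 38.8 CPM in the Zbtb16- Icos+ gate and 56.7, 145.8 and 9.04 CPM in the gate with none of the 4 genes. One cell carried 82.6% of the reads behind the 38.8 CPM, and 7.27 CPM remained without it.

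Between WT Il1rl1+ and WT Zbtb16+ Icos- cells, Slc7a8 differed by a log2 change of 4.67 (SE 1.15, higher in 2 of 2 experiments) without passing the threshold across all genes (edgeR's quasi-likelihood test with experiment as a block, adjusted p = 0.137). DESeq2, which called 8.16% of the genes it tested here, did call it (4.598, adjusted p = 0.000144). So did edgeR on cells thinned to one fixed number of reads (3.50, adjusted p = 0.00133), where 578 of 10094 genes were called. On the hashtags of experiment 1 as separate sums edgeR called it too (5.89, adjusted p = 0.0107), with 406 of 18886 genes called. Adjusted p ran from 0.000144 to 0.346 over all alternatives. It is not stated whether a hashtag marks 1 mouse or a pool, and the test on hashtag sums includes the spread between hashtags of a single experiment. As a plain difference of log2 CPM, with no fit or test, the change was 7.03 with experiment 1 alone and 2.77 with experiment 2 alone. By edgeR 1 of the 7 genes was called in this comparison, Slc3a2, against 0.911% of the 19203 genes tested. The CPM values of both experiments lay apart for 6 of 7 genes, against 44.6% of all genes tested.

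Neighbours in the order of WT levels were not told apart. From highest to lowest by mean CPM the gates ran Il1rl1+, none of the 4, Zbtb16- Icos+, Mki67+, Zbtb16+ Icos+ and Zbtb16+ Icos-, and the edgeR adjusted p of each step lay between 0.446 and 1. The step from Zbtb16+ Icos- to Zbtb16- Icos+ came to a log2 change of 3.55 (SE 1.11, adjusted p = 0.39), and 0 of 7 genes were called in it against 0.0885% of genes. At an unadjusted p under 0.05 there were 2 of 7, against 1627 of 19203 genes.

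The proliferating gate had less Slc7a8 than the Il1rl1+ gate in both experiments. The log2 change was -3.20 (SE 1.07, edgeR adjusted p = 0.226), while the median of all genes in this comparison shifted by -0.24, and DESeq2 gave -3.15 (adjusted p = 0.0164, with 0.0164 to 0.446 over all alternatives). As a plain difference of log2 CPM, with no fit or test, the change was -4.85 without experiment 2 and -1.69 without experiment 1. Markers differed as well, with Il1rl1 at 483.7 and 388.0 CPM in the WT proliferating gate against 1098 and 1370 CPM in the Il1rl1+ gate. Of the ILCP markers, Pdcd1 was higher in the proliferating gate (47.3 and 39.6 against 9.28 and 10.3 CPM) and Zbtb16 lower (24.7 and 24.7 against 46.5 and 30.6 CPM). The part of these markers in the result was not tested. Proliferating cells that were also Il1rl1+ held 11.7 and 67.5 CPM of Slc7a8, and those that were Il1rl1- held 1.11 and 37.8 CPM. The former rest on 6 and 33 cells, of which 1 carried 80.4% and 46.4% of the reads, and held 2.95 and 40.9 CPM without that cell, against 0.837 and 30.6 CPM in the latter without theirs. In this comparison edgeR called 0 of 7 genes and 0.687% of all genes, and DESeq2 called 2 of 7 and 13.1% of all genes. At an unadjusted p under 0.05 by edgeR there were 3 of 7, against 2932 of 19203 genes. CPM values lay apart for 5 of 7 genes, against 47.4% of genes.

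At the level of single cells, Slc7a8 reads were concentrated in a minority of WT cells. After thinning each cell to the same number of reads, the lower limit of experiment 2, 32.3% (95% exact binomial interval 27.8 to 37.0) and 24.9% (23.5 to 26.4) of WT Il1rl1+ cells held a read, against 13.6% and 18.8% of Zbtb16- Icos+ cells and 1.56% and 5.47% of Zbtb16+ Icos- cells. Unthinned, 71.1% and 34.3% of the Il1rl1+ cells and 53.1% and 9.38% of the Zbtb16+ Icos- cells held one, at medians of 369314 and 30998 and of 645160 and 44630 reads per cell. As a background, a read of the B cell gene Cd79a was found after thinning in 0.239% and 0% of WT Il1rl1+ cells, and one of the myeloid gene Mpo in 1.20% and 0.484%. Unthinned, an Mpo read was found in 38.5% and 2.30% of WT Il1rl1+ cells and in 57.8% and 2.34% of WT Zbtb16+ Icos- cells. The unthinned Slc7a8 share of Zbtb16+ Icos- cells in experiment 1 was thus at background, in G3SEKO cells too, where both genes were found in 36.4% of 11 cells. The intervals cover counting error only, since reads copied from 1 molecule were counted separately.

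**Figure D2:**
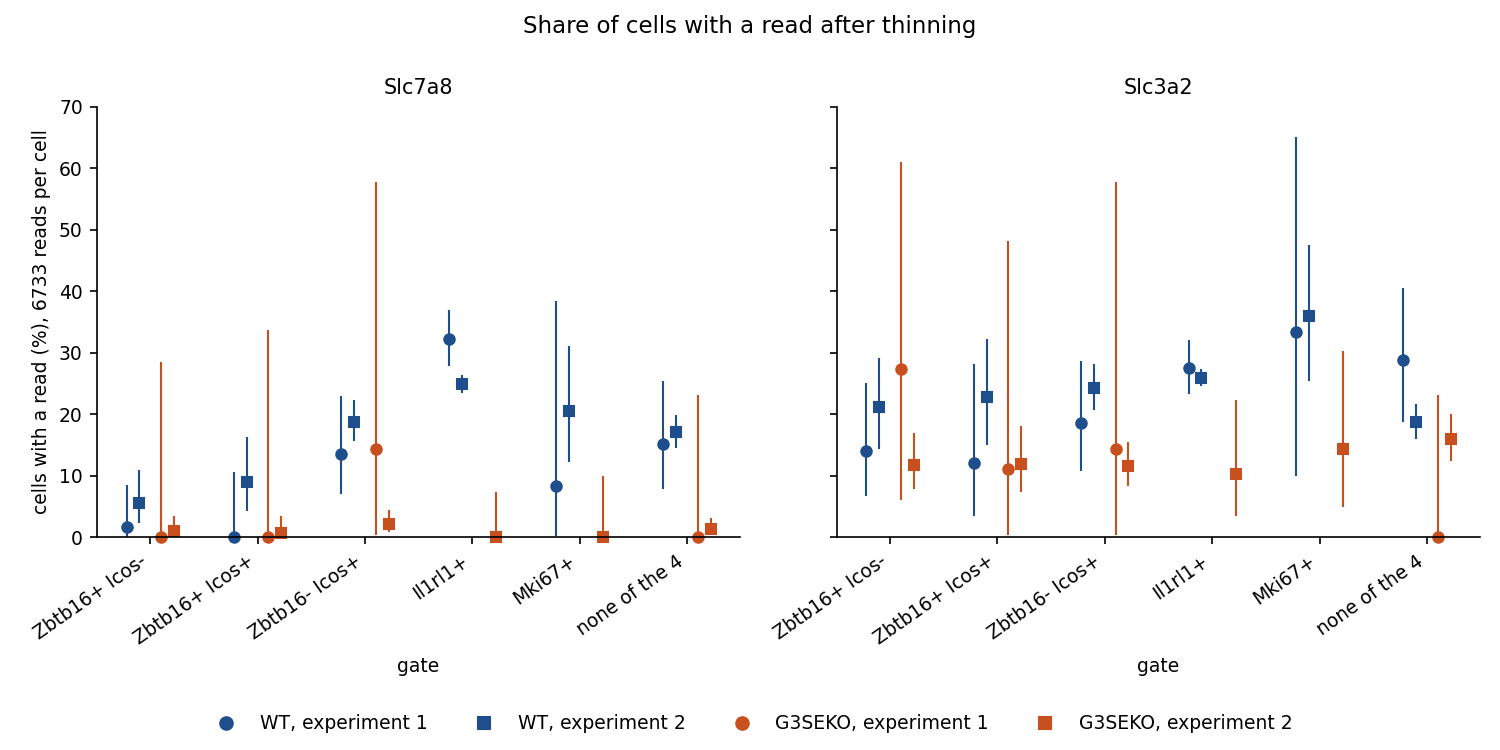
Percent of cells with at least 1 read of Slc7a8 (left) or Slc3a2 (right) after thinning each cell to the same number of reads, by gate, with exact 95% binomial intervals as bars, WT in blue and G3SEKO in orange, circles for experiment 1 and squares for experiment 2. For Slc7a8 the WT Il1rl1+ gate is highest at 32.3% and 24.9%, while 0 of 49 G3SEKO Il1rl1+ cells of experiment 2 held a read.

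Cells at or above the gate limit for Slc7a8 made up 27.3% and 20.4% of the WT Il1rl1+ gate and carried 90.3% and 91.8% of its Slc7a8 reads. Their median level was 423.0 CPM in experiment 1 and 509.2 CPM in experiment 2. In the Zbtb16- Icos+ gate 13.6% and 13.1% of cells passed this limit, with median levels of 488.0 and 505.7 CPM. In the Zbtb16+ Icos- gate 0 of 64 and 4 of 128 cells did. The limit itself sets a lowest level for such cells, so the medians describe them and were not compared by a test.

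Within the WT Il1rl1+ gate, Slc7a8 was held by cells above and below the gate limit for Gata3 and for Il18r1. Gata3+ cells held 168.5 and 154.7 CPM and Gata3- cells 179.0 and 164.5 CPM of Slc7a8. Cells without Il18r1, which encodes a subunit of the IL-18 receptor, held 179.5 and 157.1 CPM against 122.0 and 146.5 CPM in Il18r1+ cells. This difference came to a log2 change of 0.34 (SE 0.21, edgeR adjusted p = 0.793), and 0 of 7 genes were called, as were 0% of the 19330 genes tested. At an unadjusted p under 0.05 there was 1 of 7, against 1394 of all genes. In the Zbtb16- Icos+ gate of experiment 1 the 13 Gata3- cells had 0.842 CPM against 87.7 CPM in Gata3+ cells, but in experiment 2 the values were 70.2 and 77.4 CPM.

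In G3SEKO mice Slc7a8 was low in every gate. It stood at 0.755 and 0.643 CPM in the Zbtb16+ Icos- gate, 0.958 and 1.56 CPM in the Zbtb16+ Icos+ gate and 0.710 and 4.03 CPM in the gate with none of the 4 genes, where 1 cell of experiment 2 carried 68.8% of the reads and the level without it was 1.26 CPM. The Zbtb16- Icos+ gate was highest with 11.3 and 7.94 CPM, of which 1 cell carried 98.5% of the reads in experiment 1 and 44.8% in experiment 2. All 6 gates of experiment 2 and all 5 of experiment 1 with G3SEKO cells thus lay below the WT value of the same gate and experiment.

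In the Il1rl1+ gate the G3SEKO cells of experiment 2 held 2 Slc7a8 reads, both in 1 of 49 cells (0.830 CPM), against 156.4 CPM in WT. The WT level was 188.5 times that of G3SEKO, with a counting interval from 52.2 to 1557. Counting intervals of such ratios take each read as independent, so they do not cover the spread between cells or mice. In experiment 1 the 2 G3SEKO cells held no Slc7a8 read, so that WT was at least 76.1-fold higher when 3 reads are taken as the floor of that sum. These 2 cells also had 1900 CPM of the NK/ILC1 markers in sum and, being fewer than 5, entered none of the main tests, so that the test of this gate rests on experiment 2 with the lone sum assumed to vary like the others. It gave a log2 change of -8.37 (SE 2.02, edgeR adjusted p = 0.378) beside a median of -0.67 over all genes. DESeq2 (-8.21, adjusted p = 0.000124) and the thinned cells (-12.08, adjusted p = 0.00388, with no Slc7a8 read left in the G3SEKO cells, so that this value is no bound) called it, with 0.000124 to 0.844 over all alternatives. By edgeR 0 of 7 genes were called (3 at an unadjusted p under 0.05) and 0.0241% of the 20785 genes tested, and by DESeq2 1 of 7 and 2.29% of the 17158 genes with an adjusted p. The 4 ILCP markers summed to 954.5 CPM in these G3SEKO cells, against 139.0 and 105.7 CPM in WT Il1rl1+ cells of experiments 1 and 2, and Il1rl1 stood at 585.7 CPM against 1098 and 1370 CPM. The NK/ILC1 list stood at 46.0 CPM against 6.85 and 2.44 CPM, the mast cell and basophil list at 181.3 CPM against 115.6 and 57.3 CPM, and the 2 proliferation markers at 61.0 CPM against 15.1 and 11.3 CPM. The part of these marker differences in the result was not tested.

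In the Zbtb16- Icos+ gate the G3SEKO levels of 11.3 and 7.94 CPM fell to 0.193 and 4.39 CPM without the cell with the most reads. With all cells, WT exceeded G3SEKO there 6.71 times (counting interval 5.28 to 8.66) in experiment 1 and 9.58 times (8.08 to 11.4) in experiment 2. The log2 change was -2.87 (SE 1.08, edgeR adjusted p = 0.922, with 0.125 to 1 over all alternatives), and neither edgeR nor DESeq2 called any of the 7 genes, beside 0% of all genes called by edgeR, 0.42% by DESeq2 and a median of -0.24. At an unadjusted p under 0.05 by edgeR there were 3 of 7, against 915 of 20785 genes. CPM values of the genotypes lay apart for 4 of 7 genes, against 28.4% of genes. The 4 ILCP markers summed to 476.7 and 259.5 CPM in WT and to 626.3 and 810.2 CPM in G3SEKO cells of this gate, and the 4 ST2+ ILC2 markers, which include Gata3, to 1396 and 1442 CPM and to 554.9 and 563.1 CPM. The NK/ILC1 list stood at 169.9 and 18.3 CPM in WT and at 31.7 and 180.0 CPM in G3SEKO cells, and the mast cell and basophil list at 106.3 and 54.7 CPM and at 136.2 and 129.6 CPM. The part of these lists in the result was not tested.

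The gate with none of the 4 genes gave WT over G3SEKO ratios of 114.7 (52.6 to 312.8) and 29.8 (23.3 to 38.9). The fitted log2 change was -5.71 (SE 1.24, edgeR adjusted p = 0.732), with 0 of 7 genes called and 0% of all genes. At an unadjusted p under 0.05 there were 3 of 7, against 924 of 20785 genes. Here too CPM values lay apart for 4 of 7 genes, against 26.7% of genes. The NK/ILC1 markers given above and the T lineage markers, at 307.6 and 40.0 CPM in WT and 523.2 and 100.3 CPM in G3SEKO, were higher in G3SEKO cells of this gate in both experiments. So was the ILCP list, at 294.9 and 164.0 CPM in WT and 610.8 and 672.6 CPM in G3SEKO cells. The mast cell and basophil list summed to 133.8 and 54.8 CPM in WT and to 283.1 and 79.9 CPM in G3SEKO cells. The myeloid list stood at 5.44 and 1.01 CPM in WT and at 3657 and 0.820 CPM in G3SEKO cells, the first of these nearly all Lyz2 in a sum of 14 cells. The part of these lists in the result was not tested.

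A difference of the genotype effect between stages was not resolved. In the Zbtb16+ Icos- gate WT exceeded G3SEKO 1.67 times (0.730 to 4.73) in experiment 1, an interval that includes equal levels between cells whose shares with a read were at background, and 35.7 times (18.3 to 79.6) in experiment 2, where 4 WT cells carried 86.3% of the WT reads. The genotype difference in the Il1rl1+ gate minus that in the Zbtb16+ Icos- gate was -4.86 on the log2 scale (SE 2.09, edgeR adjusted p = 1, with 0.354 to 1 over all alternatives), and 0 of 7 genes were called by edgeR (1 at an unadjusted p under 0.05) or DESeq2, as were 0% of all genes, whose median was -0.53. Gata3, the gene whose enhancers were deleted, stood at 1388 and 1042 CPM in WT Il1rl1+ cells and at 310.7 CPM in the G3SEKO cells of experiment 2. In the Zbtb16+ Icos- gate it stood at 877.3 and 788.2 CPM in WT and at 886.4 and 451.6 CPM in G3SEKO cells.

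Among G3SEKO Il1rl1+ cells of experiment 2, both Slc7a8 reads lay in the 36 Il18r1+ cells (0.989 CPM). The 13 Il18r1- cells held none, which put WT at least 20.4-fold higher. The fit on this division had 1 residual degree of freedom, and its G3SEKO sums, 1 in each division, were assumed to vary like the others. It gave a log2 change of -7.21 (SE 0.515, edgeR adjusted p = 0.142) in Il18r1+ cells. In Il18r1- cells Slc7a8 was called (adjusted p = 0.0396), 1 of 7 genes beside 10.3% of all genes and a median shift of -5.79 over all genes, but with no G3SEKO read its fitted change is no bound.

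**Figure D3:**
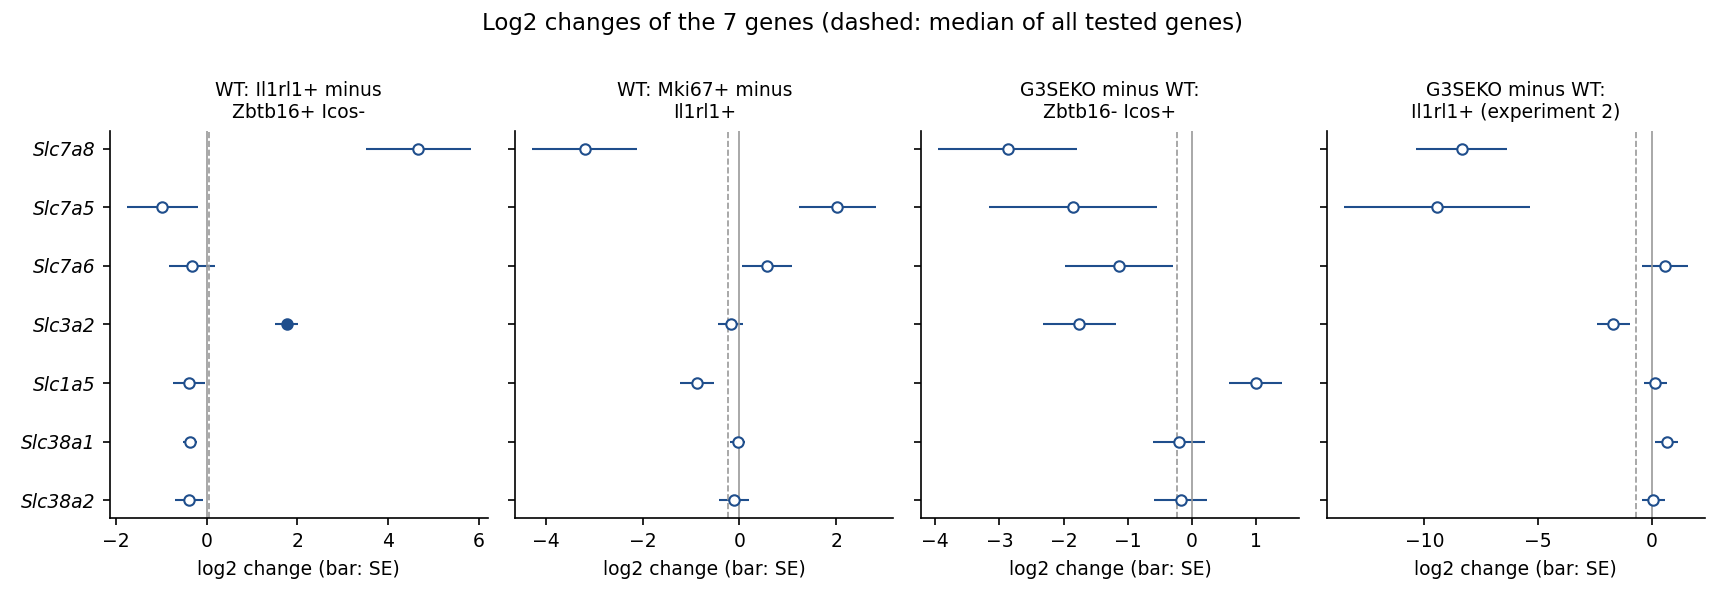
Log2 change of the 7 genes (points, with the SE as bars) in 4 comparisons by edgeR, where a filled point marks an adjusted p under 0.05 and the dashed line the median over all genes tested. Slc3a2 between WT Il1rl1+ and Zbtb16+ Icos- cells is the one filled point, at 1.76, while Slc7a8 lies at 4.67, -3.20, -2.87 and -8.37 with SEs of 1.07 to 2.02.

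The heavy chain gene Slc3a2 rose between WT ILCPs and WT ST2+ cells. It stood at 32.8 and 73.0 CPM in the Zbtb16+ Icos- gate, 44.7 and 87.5 CPM in the Zbtb16+ Icos+ gate, 98.7 and 170.9 CPM in the Zbtb16- Icos+ gate and 140.3 and 190.2 CPM in the Il1rl1+ gate. The Il1rl1+ values lay above both Zbtb16+ Icos- values. The log2 change between these gates was 1.76 (SE 0.26, edgeR adjusted p = 0.0270), but it was not called at a gate limit of 0.5 or 1.5 or without the block (adjusted p from 2.95e-07 to 0.434 over all alternatives). The proliferating gate kept 119.1 and 157.8 CPM of Slc3a2, a rise of 1.58 (SE 0.26, adjusted p = 0.0291) over Zbtb16+ Icos- cells, where it was the 1 gene called of 7 against 2.27% of genes. The log2 change of Slc3a2 between proliferating and Il1rl1+ cells was -0.18 (SE 0.25, adjusted p = 0.768).

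G3SEKO cells had lower Slc3a2 values in the Zbtb16- Icos+ and Il1rl1+ gates, without a call. The log2 change was also negative in the Zbtb16+ Icos+ gate (-0.62, SE 0.55, edgeR adjusted p = 0.930). In the Zbtb16- Icos+ gate G3SEKO cells held 25.5 and 57.3 CPM, below the WT values of 98.7 and 170.9 CPM. The log2 change there was -1.76 (SE 0.56, edgeR adjusted p = 0.922). In the Il1rl1+ gate of experiment 2 the value was 70.1 CPM against 190.2 CPM in WT (log2 change -1.68, SE 0.74, adjusted p = 0.83). In the Zbtb16+ Icos- gate the experiments ran in opposite directions, with 53.2 against 32.8 CPM in experiment 1 and 40.8 against 73.0 CPM in experiment 2. The gate with none of the 4 genes held 13.4 and 103.8 CPM in G3SEKO and 120.4 and 145.6 CPM in WT cells.

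Slc3a2 and Slc7a8 reads were also counted in the same cells. After thinning, 30.4% of the 135 WT Il1rl1+ cells with an Slc7a8 read in experiment 1 held an Slc3a2 read, and 26.1% of the 283 cells without one. In experiment 2 these shares were 30.9% of 875 and 24.3% of 2640 cells, with the higher share among cells holding Slc7a8 in both experiments. In the Zbtb16- Icos+ gate the order differed between experiments, with 9.09% of 11 against 20% of 70 cells in experiment 1 and 31.4% of 102 against 22.6% of 442 cells in experiment 2. It also differed in the gate with none of the 4 genes, with 18.2% of 11 against 30.6% of 62 cells and then 27.7% of 130 against 16.9% of 634 cells. Cells of 1 library are not replicates, so the shares are given as a description.

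The other light chains of this heavy chain were sparse. Slc7a5 stood at 13.4 and 5.25 CPM in WT Zbtb16+ Icos- cells, 4.13 and 3.91 CPM in WT Il1rl1+ cells and 26.0 and 10.2 CPM in WT proliferating cells. The proliferating values lay above the Il1rl1+ values in both experiments (log2 change 2.02, SE 0.80, edgeR adjusted p = 0.296, called by DESeq2 with an adjusted p of 0.0262). A single cell held 52.0% of the Slc7a5 reads of proliferating cells in experiment 1 and 34.9% in experiment 2. In G3SEKO cells Slc7a5 ranged from 0.167 to 42.9 CPM over the gates with at least 5 cells other than Il1rl1+, where 49 cells of experiment 2 held no read, and the highest of these values came to 99.4% from 1 cell.

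Slc7a6 showed no ordering by stage. It ranged from 6.57 to 40.1 CPM over the WT gates and stood at 19.0 and 34.3 CPM in Zbtb16+ Icos- cells and 18.3 and 21.3 CPM in Il1rl1+ cells, which overlap (log2 change -0.33, SE 0.51, adjusted p = 0.961). In G3SEKO Il1rl1+ cells of experiment 2 it was 41.1 CPM, against 21.3 CPM in WT (log2 change 0.58, SE 1.003, adjusted p = 0.946).

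The glutamine carriers were expressed in every gate with at least 5 cells. Slc38a1 stood at 304.0 and 364.3 CPM in WT Zbtb16+ Icos- cells and at 251.0 and 254.1 CPM in WT Il1rl1+ cells, lower in both experiments by a log2 change of -0.37 (SE 0.16, edgeR adjusted p = 0.448). Slc38a2 stood at 131.6 and 180.1 CPM, then 107.1 and 124.2 CPM, in the same gates (log2 change -0.39, SE 0.30, adjusted p = 0.792). Neither was called between genotypes, where the log2 changes in the Il1rl1+ gate were 0.66 (SE 0.50) and 0.08 (SE 0.52).

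Slc1a5 had its highest WT values in the Zbtb16+ gates of experiment 1. In WT it stood at 146.3 and 127.5 CPM in Zbtb16+ Icos- cells, 106.0 and 98.7 CPM in Il1rl1+ cells and 48.6 and 56.6 CPM in proliferating cells. The proliferating values lay below the Il1rl1+ values (log2 change -0.88, SE 0.36, edgeR adjusted p = 0.302). In G3SEKO cells Slc1a5 was above WT in the Zbtb16- Icos+ gate, at 234.6 and 148.6 CPM against 78.1 and 108.1 CPM (log2 change 0.99, SE 0.41, adjusted p = 0.922). It was also above WT in proliferating cells of experiment 2, at 143.1 against 56.6 CPM (log2 change 1.56, SE 0.48, adjusted p = 0.909), and in the gate with none of the 4 genes, at 236.3 and 121.2 CPM against 87.6 and 86.4 CPM. In the Il1rl1+ gate of experiment 2 it was 109.5 CPM, close to the 98.7 CPM of WT (log2 change 0.16, SE 0.50).

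**Figure D4:**
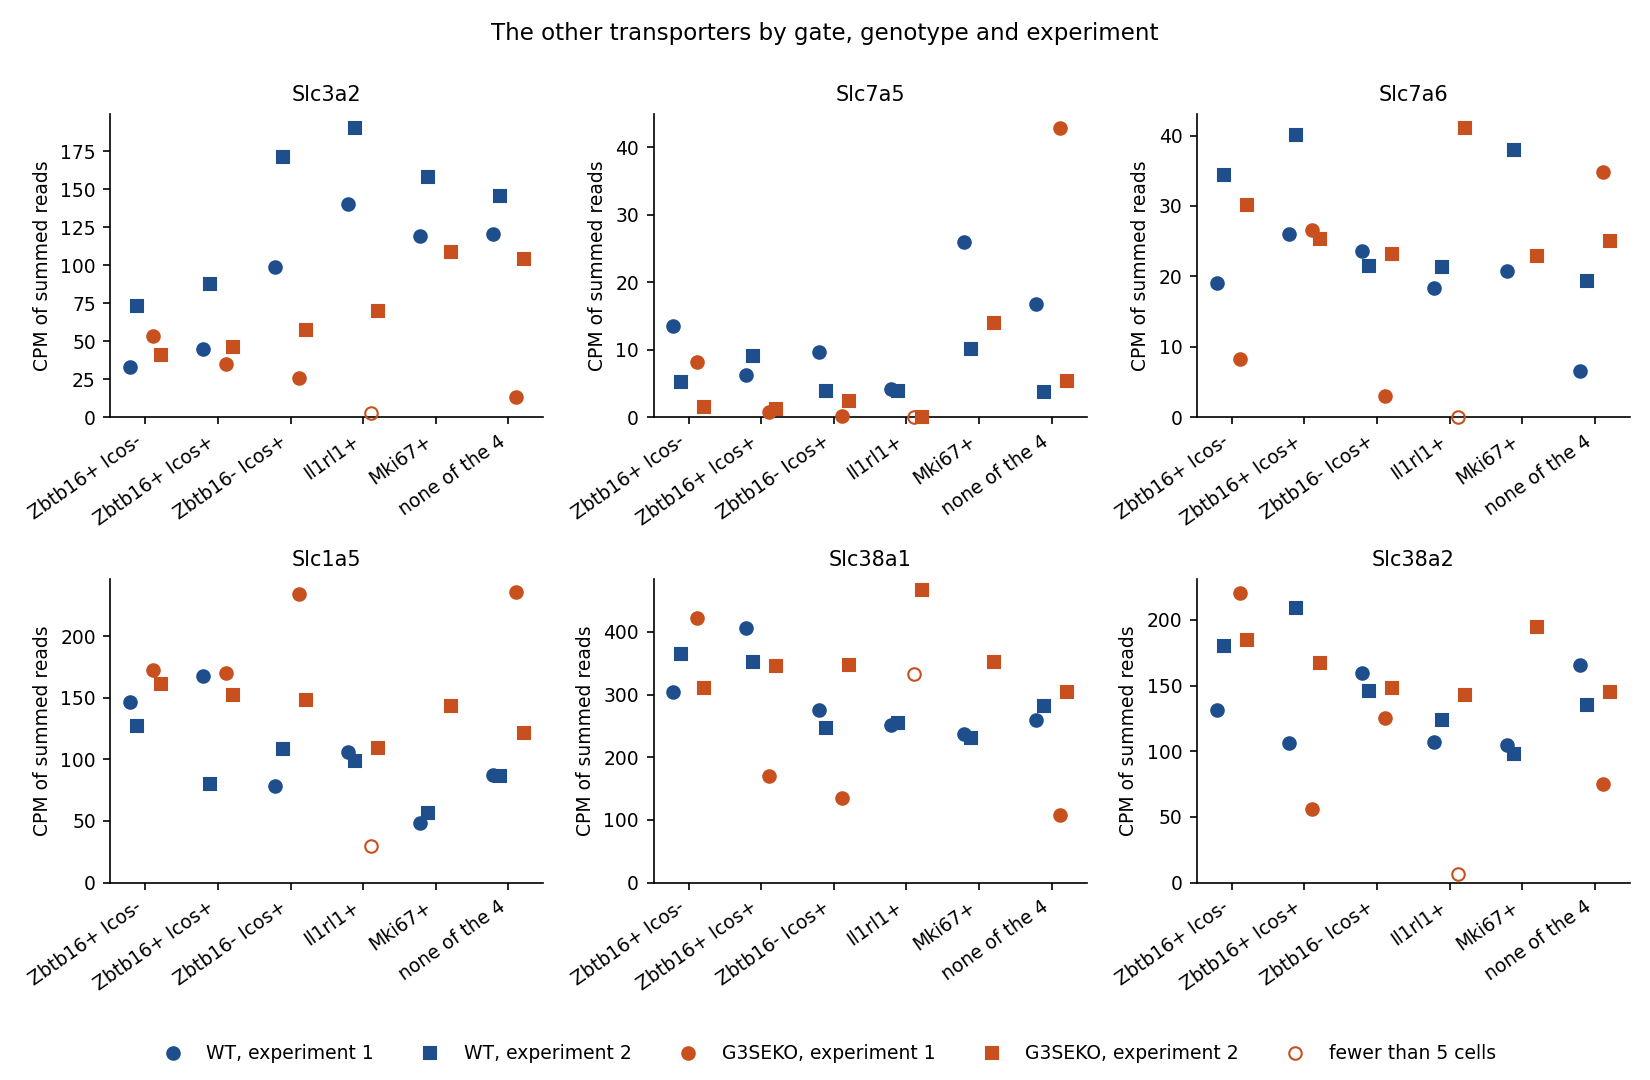
CPM of summed reads (y axes, each from 0) of the 6 other genes by gate (x axes), WT in blue and G3SEKO in orange, circles for experiment 1 and squares for experiment 2, with an open symbol for a sum of fewer than 5 cells. Slc3a2 in WT goes from 32.8 and 73.0 CPM in Zbtb16+ Icos- to 140.3 and 190.2 CPM in Il1rl1+ cells, while Slc38a1 goes from 304.0 and 364.3 to 251.0 and 254.1 CPM.

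The wider amino acid genes were compared between WT Il1rl1+ and Zbtb16+ Icos- cells, where edgeR called 0.911% of all genes. Of 42 other amino acid transporters 31 were in the tables and 27 were tested, and 0 were called, with a median log2 change of 0.03 beside 0.05 over all genes. The 2 highest of them, Slc38a10 and the taurine transporter Slc6a6, changed by 0.04 (SE 0.21) and -0.36 (SE 0.31). None of the 20 amino acid response genes tested was called (median -0.50), among them Ddit4, an inhibitor of mTORC1 signalling, at 280.3 and 299.7 CPM in Zbtb16+ Icos- and 93.0 and 105.1 CPM in Il1rl1+ cells (log2 change -1.52, SE 0.37, adjusted p = 0.128), and Atf4 (-0.52, SE 0.33). None of 20 aminoacyl-tRNA synthetases (median 0.01, with Vars at 0.32 and Eprs at 0.10) and none of 18 tested genes of amino acid use (median 0.35) was called.

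Of 31 genes of mTORC1 and amino acid sensing 1 was called, beside the same 0.911% of all genes, with a list median of 0.21. Sesn1, a stress-induced sestrin that restrains mTORC1, rose from 69.8 and 122.1 CPM to 290.4 and 261.4 CPM (log2 change 1.62, SE 0.23, edgeR adjusted p = 0.0235). In the comparison of proliferating with Il1rl1+ cells (0.687% of all genes called) and in the genotype comparisons of the Il1rl1+ gate (0.0241%) and of the Zbtb16- Icos+ and none of the 4 gates (0% in each), 0 genes of any of the 5 lists were called by edgeR. In the G3SEKO Il1rl1+ gate the list medians ran from -0.997 (amino acid response) to -0.42 (amino acid use), beside -0.67 over all genes.

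The genes whose levels were most like Slc7a8 over the 22 sums of at least 5 cells were Rnf128 (Pearson r = 0.961), Lpcat2 (0.953), Il9r (0.938), Cnot6l (0.894), Ptpn13 (0.886), Pcsk1 (0.883), Stxbp6 (0.865) and Rps6 (0.859). These were the top 8 of 7930 genes with a mean of at least 20 CPM, on log2(CPM + 10) centred within each experiment. The 22 sums share libraries, mice and the WT against G3SEKO contrast, so r is a description. Rnf128, a ubiquitin ligase, stood at 390.9 and 546.2 CPM in WT Il1rl1+ cells, 1.19 and 52.8 CPM in WT Zbtb16+ Icos- cells and 1.24 CPM in G3SEKO Il1rl1+ cells. Il9r, the receptor of the ILC2 survival factor IL-9, stood at 86.4 and 123.4 CPM, then 5.56 and 8.70 CPM, in the same WT gates.

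Among the members, Slc3a2 had r = 0.774 with Slc7a8 (rank 49), whereas Slc38a2 (-0.02), Slc38a1 (-0.16), Slc7a6 (-0.24) and Slc1a5 (-0.54) had no positive r, and Slc7a5 was under the limit of 20 CPM. Gata3 itself had r = 0.727 (rank 83).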

How the data were processed

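Bone marrow αLPs of WT and G3SEKO mice were profiled in 2 experiments. The authors trimmed reads with Cutadapt, aligned them with Bowtie2 to GRCm38 and deposited read counts per gene and cell, not collapsed to molecules, and they assigned doublets and origin from hashtag counts. Seurat (version 4) is named in the submitters' processing notes. No doublet caller was run here. Cells needed at least 83012 (experiment 1) or 6733 (experiment 2) reads, at most 10% mitochondrial reads, a genotype and Id2 at 1 or more on ln(1 + reads per 10000). Of 8663 cells 8422 passed the first pair of limits, 8322 also had a genotype and 7013 also passed Id2. Kept reads totalled 348926728 (WT) and 31047309 (G3SEKO) in experiment 1, and 210274209 and 66407190 in experiment 2.

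Counts were summed per gate, genotype and experiment (at least 5 cells) and tested with edgeR 4.0.16 (R 4.3.3, TMM, quasi-likelihood, Benjamini-Hochberg adjusted p under 0.05), experiment as a block. The WT fit used 12 sums (5 residual degrees of freedom) and the genotype fit 22 sums (9). The experiment number pairs the samples, as both genotypes shared a run. With pooled mice and experiment as a block, p-values measure how differences between sums vary between experiments, not the spread between mice. Sums of the same experiment share mice and a library but enter the fits as independent. DESeq2 1.42.0 and the other alternatives are given at the end. Tests were checked on simulated counts. The 7 genes and all lists were chosen with earlier results of these data known. From each list, up to 3 called genes by size of change were named, or the 2 with the highest mean CPM where none was called, and from the ranking by likeness the top 8. Some genes of these lists are not reported here.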

Additional observations from a re-analysis of the deposited data

Results flagged for a closer look

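WT Il1rl1+ cells that were set aside because Id2 lay below its limit also held Slc7a8, at 316.2 CPM in experiment 1 (17 cells) and 204.1 CPM in experiment 2 (578 cells), above the 169.1 and 156.4 CPM of the cells kept. They stand out as a signal in cells outside the main comparisons (the alternative without the Id2 limit includes them), and the 5 such G3SEKO cells of experiment 2 held no Slc7a8 read.

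For 3 further genes the genotype difference ran in opposite directions in different gates, the same way in both experiments. These differences between gates were not tested. The log2 ratio of G3SEKO to WT CPM of Slc7a5 was 1.35 and 0.55 (experiments 1 and 2) in the gate with none of the 4 genes, but -0.72 and -1.81 in Zbtb16+ Icos-, -2.94 and -2.89 in Zbtb16+ Icos+ and -5.86 and -0.65 in Zbtb16- Icos+ cells. One cell held 99.4% of the G3SEKO Slc7a5 reads behind the first of these values, and the value of -5.86 rests on 1 G3SEKO read in 7 cells (counting interval -11.17 to -3.37). In Zbtb16+ Icos+ cells 1 WT cell per experiment held 89.5% and 77.8% of the WT reads, with 0.696 and 2.04 CPM left without it. In Zbtb16+ Icos- cells 1 G3SEKO cell per experiment held 98.5% and 85.7% of the G3SEKO reads. In experiment 2 single cells held 86.7% of the G3SEKO reads of Zbtb16- Icos+ cells and 61.0% of the WT reads of the gate with none of the 4 genes. Slc7a6 had ratios of 2.405 and 0.38 in the gate with none of the 4 genes and -1.20 and -0.19 in Zbtb16+ Icos- cells. Slc38a2 had ratios of 0.75 and 0.038 in Zbtb16+ Icos- cells and -0.91 and -0.32 in Zbtb16+ Icos+ cells.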

How the results depend on the processing

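Of 411 log2 changes under an alternative, 382 kept their direction. Values with 1 experiment left out are plain differences of log2 CPM, with no fit or test. For Slc7a8 between WT Il1rl1+ and Zbtb16+ Icos- cells (4.67, not called), DESeq2 (4.598), thinned cells (3.50) and hashtag sums (5.89) made a call, and leaving out 1 experiment gave 2.77 to 7.03. There 1 of 7 genes was called, against 2 with DESeq2, thinned cells and hashtag sums and 0 without the block and at gate limits of 0.5 and 1.5, where Slc3a2 was at 1.70, 1.44 and 1.48. Over all genes 175 of 19203 were called, against 1355 of 16597 with DESeq2, 578 of 10094 with thinned cells and 406 of 18886 with hashtag sums. Without the block 95 of 19203 were called, and at gate limits of 0.5 and 1.5 190 of 18651 and 62 of 19803. For Mki67+ minus Il1rl1+ cells, DESeq2 called 2 genes and Slc7a8 among them (-3.15), and leaving out 1 experiment gave -4.85 to -1.69. For G3SEKO minus WT in Il1rl1+ cells, DESeq2 (-8.21) and thinned cells (-12.08) called Slc7a8 and 1 gene in all. The genotype difference between gates was -2.43 without experiment 1, and could not be had without experiment 2, nor could the Il1rl1+ genotype change.

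Without the replicate block, which pairs sums by experiment, Slc7a8 changed by 3.90, -2.54, -7.75, -2.96 and -3.77 in the 5 comparisons, with no call, as with the block.

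Only changes that were not called turned direction, and the cause was not tested. Mki67+ minus Il1rl1+ turned for Slc38a1 (0.048 with DESeq2, 0.30 at gate limit 1.5, 0.0036 thinned, 0.33 with hashtag sums), Slc38a2 (0.15 without the Id2 limit), Slc7a6 (-0.86 at 1.5, -0.54 with hashtag sums, -0.94 in Mki67+ Il1rl1+ cells) and Slc3a2 (0.19 in Mki67+ Il1rl1+ cells). G3SEKO minus WT in Il1rl1+ cells turned for Slc1a5 (-0.047 without the block, -0.0045 thinned, -0.53 with sums of at least 2 cells), Slc7a6 (-1.02 at 1.5, -0.51 with at least 2 cells) and Slc38a2 (-0.30 at 1.5, -0.021 with hashtag sums, -0.90 with at least 2 cells). In Zbtb16- Icos+ cells it turned for Slc7a6 (0.59 at 1.5, 0.31 thinned), Slc7a5 (1.10 at 0.5) and Slc38a1 (0.091 thinned, 0.28 with hashtag sums). The genotype difference between gates turned for Slc1a5 (0.13 at 1.5, 0.15 at 0.5) and Slc38a2 (0.14 at 0.5). Leaving out experiment 1 turned 4 more, Slc7a6 (0.11), Slc38a1 (0.50) and Slc38a2 (0.022) in Zbtb16- Icos+ cells and Slc38a2 (0.17) for the difference between gates.

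Over all genes, calls between WT Il1rl1+ and Zbtb16+ Icos- cells ran from 62 (gate limit 1.5) to 1355 (DESeq2) against 175, those for Mki67+ minus Il1rl1+ cells from 43 (no block) to 2080 (DESeq2) against 132, and those for the Il1rl1+ genotype change from 1 (no block) to 393 (DESeq2) against 5, of which 147 and 4 were higher in G3SEKO. Sums of at least 2 cells and sums without the cell with the most Slc7a8 reads were chosen after seeing the data. The 49 G3SEKO Il1rl1+ cells limit what can be shown for that gate.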
